A study of Homo sapiens with 96 samples.

Results

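The 10 zinc-dependent histone deacetylases of classes I and II, HDAC1 to HDAC10, were followed through the differentiation of human neural progenitors and through 5 chemical exposures. They were found by gene symbol among the 58434 genes of the deposited table, and all 10 passed the filter on low values in both fits. The cells derived from the human embryonic stem cell line H9. One group held neural progenitor cells (NPC) on day 0, without exposure. The other 11 groups held neuron and astrocyte co-cultures on day 10: an unexposed control, and cultures with 1 of 5 compounds at 2 concentrations each. The compounds were acrylamide and valproic acid, prepared in medium, and chlorpyrifos, fluoxetine and methyl mercury, prepared in DMSO at a final 0.25% of the medium. The concentrations carry the names IC5 and IC20/100. They are taken here as the concentration inhibiting by 5% and as the 20% one diluted 100-fold, so that IC5 is the higher. The labels state no molar concentration, no exposure length and no DMSO content for the controls, so for the DMSO-dissolved compounds an effect of vehicle and one of compound cannot be told apart.

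Each group held 8 libraries, all technical replicates of 1 experiment per the labels, so the p-values below measure the spread between these libraries only. The 96 libraries held between 9487160.0 and 29626700.0 reads, and a member held from 288 reads (HDAC8) to 11977 reads (HDAC2) in a library. Values are the authors' normalized read counts, gene counts divided by 1 size factor per library. Replicate 8 of methyl mercury IC20/100 stood apart, with the highest deposited total of all libraries, and where leaving it out ended the call of a member, both values are given. In controls the summed neuronal markers had a median of 88252 and the summed astrocyte markers 4993, and GFAP, a defining astrocyte marker, was at 25.7 ± 14.6 (SD, n = 8). In bulk RNA, fewer cells of a type and less RNA per cell cannot be told apart.

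Histone deacetylases remove acetyl groups from lysines of histones and other proteins, which on histones is generally linked to repression of transcription. The class I enzymes (HDAC1, HDAC2, HDAC3 and HDAC8) are mainly nuclear: HDAC1 and HDAC2 are catalytic subunits of the SIN3, NuRD and CoREST complexes, and HDAC3 is that of NCoR/SMRT. The class IIa enzymes (HDAC4, HDAC5, HDAC7 and HDAC9) bind MEF2 transcription factors, and leave the nucleus when kinases such as CaMK and PKD create docking sites for 14-3-3 proteins. In class IIb, HDAC6 deacetylates tubulin in the cytoplasm and HDAC10 deacetylates polyamines. Valproic acid, an anticonvulsant and a developmental neurotoxicant, inhibits the class I enzymes and, less strongly, class IIa. That inhibition acts on the proteins, and the data here are RNA levels.

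HDAC1 (ENSG00000116478.12) spans chr1:32292086-32333635 on the plus strand. HDAC5 (ENSG00000108840.15) spans chr17:44076746-44123702, HDAC7 (ENSG00000061273.18) chr12:47782722-47833132 and HDAC10 (ENSG00000100429.18) chr22:50245183-50251405, all on the minus strand (GRCh38, GENCODE 29). RefSeq promoter entries (GRCh38.p14) were found for 9 of the 10 members, all but HDAC5. HDAC1 and HDAC10 were the members called between the valproic acid concentrations, and HDAC7 the member that fell most with differentiation. For these members the stretches before the start of the RefSeq entry are shown. They cover chr1:32291833-32292082 (plus strand), chr22:50251406-50251515 and chr12:47819981-47820153 (both minus strand), with annotated untranslated bases left out, and read 5′ to 3′ on the strand of the gene. Capitals mark GC boxes (GGGCGG, or CCGCCC on the other strand) and CCAAT boxes (CCAAT, or ATTGG on the other strand).
HDAC1: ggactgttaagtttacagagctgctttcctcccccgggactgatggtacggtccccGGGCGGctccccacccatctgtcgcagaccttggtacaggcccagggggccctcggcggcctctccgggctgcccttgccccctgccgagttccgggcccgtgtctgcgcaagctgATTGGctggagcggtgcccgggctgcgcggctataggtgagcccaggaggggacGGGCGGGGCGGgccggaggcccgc
HDAC10: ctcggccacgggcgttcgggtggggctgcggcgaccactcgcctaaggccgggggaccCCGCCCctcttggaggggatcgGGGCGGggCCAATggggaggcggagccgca
HDAC7: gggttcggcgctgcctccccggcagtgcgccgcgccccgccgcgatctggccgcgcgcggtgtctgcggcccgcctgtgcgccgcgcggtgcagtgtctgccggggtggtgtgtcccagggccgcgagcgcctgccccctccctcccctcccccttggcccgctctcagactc
The 250 bases before the HDAC1 start were 71.6% G or C with 21 CpG dinucleotides, and held 3 GC boxes, 2 of which share 1 base, and 1 CCAAT box. The HDAC10 window of that length was 78% G or C with 35 CpG dinucleotides, and held 4 GC boxes and 1 CCAAT box, of which the stretch shown holds 2 and 1. The HDAC7 window was 75.6% G or C with 28 CpG dinucleotides and held neither motif. It lies inside the HDAC7 span given above, before an internal start, so the bases before the outermost start were not examined. Among all 35114 promoter windows of 250 bases, 42.64% held a GC box on either strand and 32.01% a CCAAT box, and the medians were 58% G or C and 11 CpG dinucleotides.

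Levels were compared between genes only per length, as normalized reads per kilobase of the principal transcript. On this scale the controls had the highest mean levels for HDAC6 (747 ± 112, SD, n = 8), HDAC1 (661 ± 53.8), HDAC2 (587 ± 38.1) and HDAC3 (576 ± 121). HDAC7 (363 ± 49.1), HDAC5 (358 ± 32.3), HDAC10 (264 ± 21.6) and HDAC9 (246 ± 16.7) followed. HDAC4 (115 ± 54.0) and HDAC8 (97.2 ± 7.46) were lowest. The order depends partly on the length used: with all exons of a gene merged, HDAC2 came first in controls, followed by HDAC1 and HDAC6, while HDAC8 came last under both lengths. Class I genes made up 55.6% of the summed per-length level of the 10 members in NPC, 47.9% in controls, 48.7% at valproic acid IC20/100 and 53.9% at valproic acid IC5. Class IIb made up 19.8% in NPC, 25.2% in controls and 21.7% at valproic acid IC5. In the other exposed groups class I ran from 46.9% (acrylamide IC20/100) to 51.3% (chlorpyrifos IC5). Class IIb ran there from 23.4% (chlorpyrifos IC5) to 26.35% (acrylamide IC5). From controls to valproic acid IC5, HDAC1 went from 16.5% to 19.5% and HDAC3, not called there, from 14.4% to 17.1%. The shares were not tested.

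**Figure D1:**
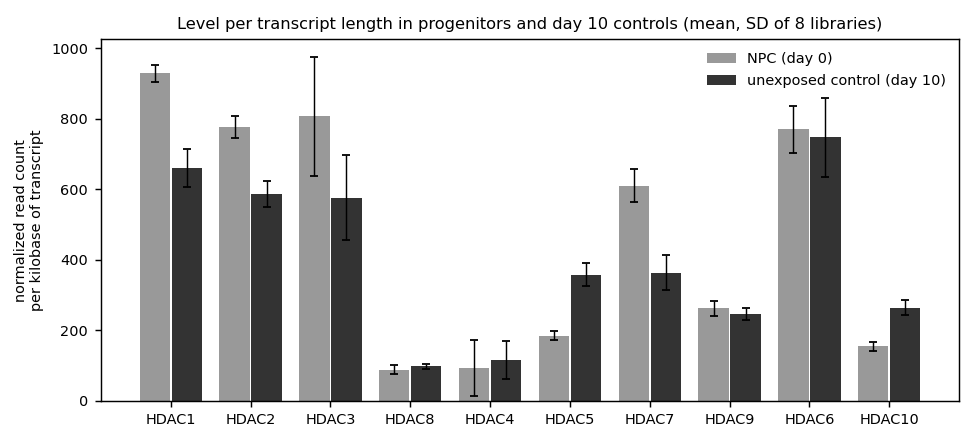
Mean normalized read count per kilobase of principal transcript (vertical axis) for the 10 deacetylase genes, with grey bars for NPC on day 0, black bars for unexposed controls on day 10 and error bars of 1 SD over 8 libraries. HDAC1 stood at 929 ± 23.5 in NPC and 661 ± 53.8 in controls, and HDAC5 at 185 ± 13.3 and 358 ± 32.3.

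Between progenitors and day 10 controls, HDAC1, HDAC2, HDAC3 and HDAC7 fell, and HDAC5 and HDAC10 rose. In all, 6 of 10 members passed the test, beside 70.7% of all genes tested: 2 were higher in controls (all genes 33.9%) and 4 lower (36.8%). The test was limma on log2 of the value plus 2, with sequencing run as a term and Benjamini-Hochberg adjustment over all genes. The median log2 change of the members was -0.079, against -0.015 over all genes.

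In class I, HDAC1 ran from 1894 to 2022 (median 1986) in NPC and from 1262 to 1578 (median 1375) in controls. No control reached the lowest NPC library, and the log2 change was -0.49 ± 0.041 (SE; limma adjusted p = 3.62e-07), with controls lower in 6 of 6 runs. HDAC2, its paralog in the same complexes, ran from 7172 to 7954 (median 7789) in NPC and from 5065 to 6409 (median 5784) in controls, again without overlap (-0.40 ± 0.044, limma adjusted p = 5.82e-06). HDAC3 ran from 1261 to 2234 (median 1434) in NPC and from 776 to 1397 (median 1217) in controls. Its ranges overlapped, and the log2 change of -0.43 ± 0.15, limma adjusted p = 0.0245, was not called without control replicate 4 (adjusted p = 0.0726), NPC replicate 3 (0.0771) or NPC replicate 6 (0.0725). HDAC8, which deacetylates cohesin, was at 504 ± 71.4 in NPC and 553 ± 42.4 in controls and did not pass (0.16 ± 0.084, limma adjusted p = 0.101), though it did without replicate 8 of the controls (adjusted p = 0.0416) or of NPC (0.0447).

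Class IIa members went different ways. HDAC5, a MEF2 corepressor, ran from 882 to 1096 (median 992) in NPC and from 1661 to 2087 (median 1931) in controls. Every control was above every NPC library, and the mean was 1.94 times that of NPC (log2 change 0.91 ± 0.045, limma adjusted p = 4.63e-09). HDAC7, another MEF2 corepressor, ran from 2283 to 2847 (median 2446) in NPC and from 1211 to 1828 (median 1513) in controls, without overlap and lower in 6 of 6 runs (-0.79 ± 0.075, limma adjusted p = 1.44e-06). HDAC4 (0.35 ± 0.28, limma adjusted p = 0.27) and HDAC9 (-0.071 ± 0.059, limma adjusted p = 0.3) did not pass. In class IIb, HDAC10 ran from 356 to 444 (median 435) in NPC and from 599 to 777 (median 721) in controls. These groups did not overlap either (0.74 ± 0.04, limma adjusted p = 9.06e-09), while HDAC6 did not pass (-0.087 ± 0.078, limma adjusted p = 0.336).

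Genes around the deacetylases passed the test at shares near that of all genes (70.7%). Of 44 subunits of class I complexes, 6 rose and 24 fell from NPC to controls (68.2%; median log2 change -0.27, all genes -0.015). CHD5, a neuronal NuRD helicase, rose from 46.3 to 291 (2.61 ± 0.11, limma adjusted p = 1.12e-09). CDK2AP1, a NuRD subunit, fell from 3255 to 651 (-2.40 ± 0.14, limma adjusted p = 1.99e-08), and NCOR1, the corepressor that carries HDAC3, fell from 7738 to 3479 (-1.20 ± 0.16, limma adjusted p = 2.88e-05). Of 24 tested class IIa partners and kinases, 7 rose and 12 fell (79.2%; median -0.13). The calcium-dependent kinase genes CAMK2B (from 132 to 421) and CAMK2A (from 114 to 291) rose, and PRKD1, a PKD kinase gene, fell from 326 to 104. Of 16 acetyltransferases, which add what deacetylases remove, 3 rose and 9 fell (75%; median -0.25). KAT2A, the GCN5 enzyme, rose from 1054 to 2925, and HAT1, which acetylates newly made histone H4, fell from 1616 to 554. Of the 8 other deacetylases, HDAC11 and the NAD-dependent sirtuins, 4 rose and 2 fell (75%): SIRT4 rose from 14.6 to 30.9 and SIRT1 fell from 966 to 607.

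Cell type markers differed beside these changes, in a comparison where 70.7% of all genes were called (33.9% higher and 36.8% lower in controls). The summed neuronal markers ran from 62999 to 69756 in NPC and from 84130 to 91041 in controls, with 5 of 7 higher and 1 lower. The summed mesenchymal markers ran from 3091 to 4276 and from 1309 to 1721, with 5 of 6 lower, and the oligodendrocyte lineage ones from 335 to 545 and from 95.4 to 159, with 3 of 5 lower. Of 3 pluripotency markers 1 was lower, LIN28A (from 672 to 187), and 1 higher, POU5F1 (from 27.3 to 39.1), and NANOG did not pass (from 18.0 to 19.5). Of 6 progenitor markers 3 were higher and 3 lower, and of 7 astrocyte markers 2 were higher and 3 lower. The summed progenitor markers ran from 85816 to 90343 in NPC and, higher without overlap, from 91517 to 98234 in controls. The astrocyte sums ran from 3827 to 5504 and from 4436 to 5724. What part the markers had in the deacetylase differences was not tested.

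**Figure D2:**
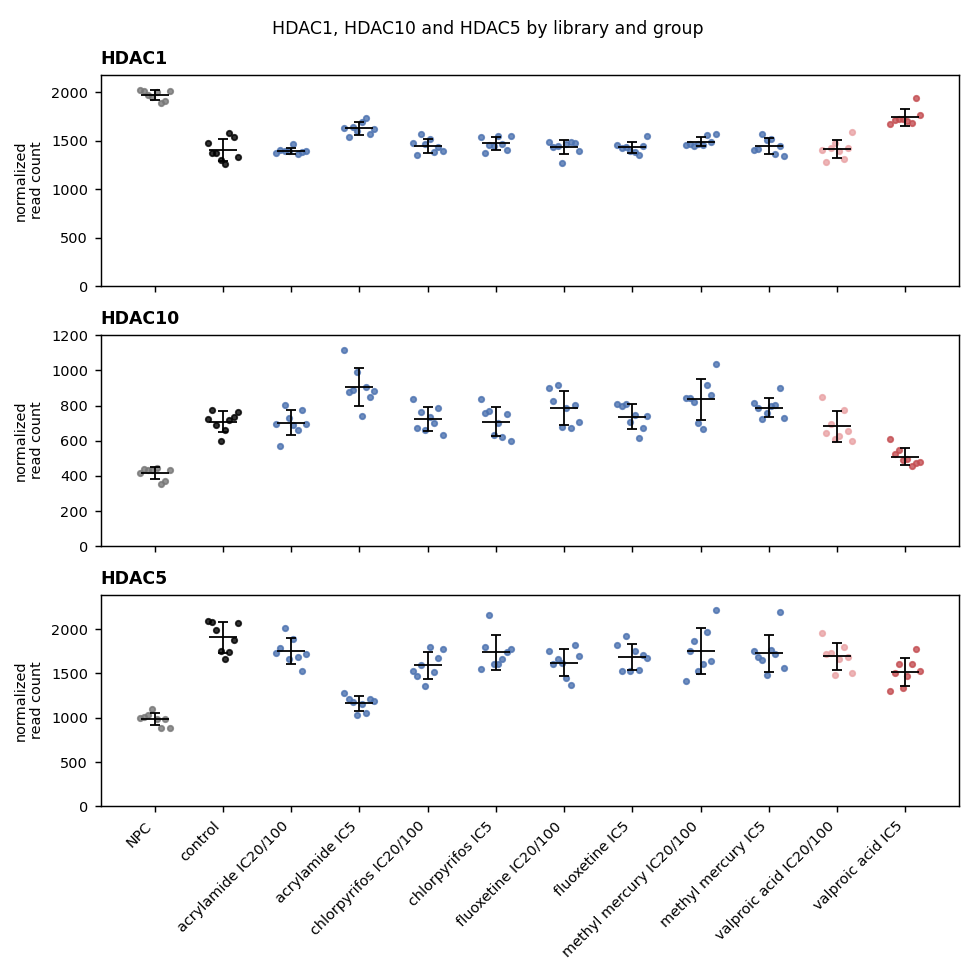
Normalized read count (vertical axis) of HDAC1, HDAC10 and HDAC5 (top to bottom) in the 12 groups (horizontal axis), with a point for each library and bars for the mean and 1 SD of 8 libraries. HDAC1 was 1741 ± 85.5 at valproic acid IC5 and 1404 ± 114 in controls, and HDAC10 was 510 ± 49.6 and 709 ± 58.0.

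In cultures given valproic acid at IC5, HDAC1 was higher and HDAC5 and HDAC10 were lower than in controls. These 3 of 10 members passed, beside 26.9% of all genes: 1 was higher (all genes 14.5%) and 2 were lower (12.4%). HDAC1 ran from 1674 to 1941 (median 1717) at IC5, above every control (from 1262 to 1578 (median 1375)). Its log2 change was 0.31 ± 0.036 (SE; limma adjusted p = 3.4e-11), higher in 6 of 6 runs, and the mean was 1.24 times that of controls. This was the highest of the 11 day 10 means, below NPC at 1973 ± 49.8, and IC5 and NPC libraries overlapped.

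HDAC10 ran from 454 to 611 (median 495) at IC5 and from 599 to 777 (median 721) in controls. The ranges met only in the highest IC5 library and the lowest control, and the log2 change was -0.48 ± 0.072, limma adjusted p = 1.31e-07, lower in 6 of 6 runs. Its mean was the lowest of the day 10 groups, above NPC at 416 ± 33.8 without overlap. HDAC10 shares 2763 exonic bases on its own strand with MAPK12, a p38-family kinase gene, so reads could be split between them and its values are uncertain. MAPK12 was at 1078 at IC5 and 1414 in controls (-0.39 ± 0.045, limma adjusted p = 5.43e-11). From NPC to controls, where HDAC10 rose, MAPK12 was at 1356 and 1414 and did not pass (0.051 ± 0.037, limma adjusted p = 0.24).

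HDAC5 ran from 1301 to 1775 (median 1515) at IC5 and from 1661 to 2087 (median 1931) in controls. The groups overlapped, and the log2 change was -0.33 ± 0.065, limma adjusted p = 3.82e-05, lower in 6 of 6 runs. The other members did not pass at IC5. HDAC9 was at 891 ± 74.9 against 790 ± 53.7 (0.17 ± 0.088, limma adjusted p = 0.142), higher in 6 of 6 runs, and passed in a fit of these 16 libraries alone (adjusted p = 0.031). HDAC2 was at 6158 ± 385 against 5792 ± 376 (0.089 ± 0.046, limma adjusted p = 0.147). The 95% interval of the log2 change ran from -0.075 to 0.70 for HDAC3, from -0.018 to 0.28 for HDAC8 and from -0.51 to 0.56 for HDAC4. It ran from -0.22 to 0.10 for HDAC7 and from -0.18 to 0.12 for HDAC6.

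At IC20/100, 0 of 10 members passed with limma, edgeR or DESeq2, and 1 (HDAC5) had an unadjusted limma p under 0.05, beside 2.54% of all genes called. HDAC1 ran from 1282 to 1590 (median 1415) and HDAC10 from 600 to 846 (median 650), both overlapping the controls. The log2 change of HDAC1 was 0.02 ± 0.036 (95% interval -0.052 to 0.092) and that of HDAC10 -0.051 ± 0.072 (-0.20 to 0.093). HDAC5 was at 1691 ± 151 (-0.17 ± 0.066, limma adjusted p = 0.171), and MAPK12 at 1407 (0.0041 ± 0.045, limma adjusted p = 0.985).

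**Figure D3:**
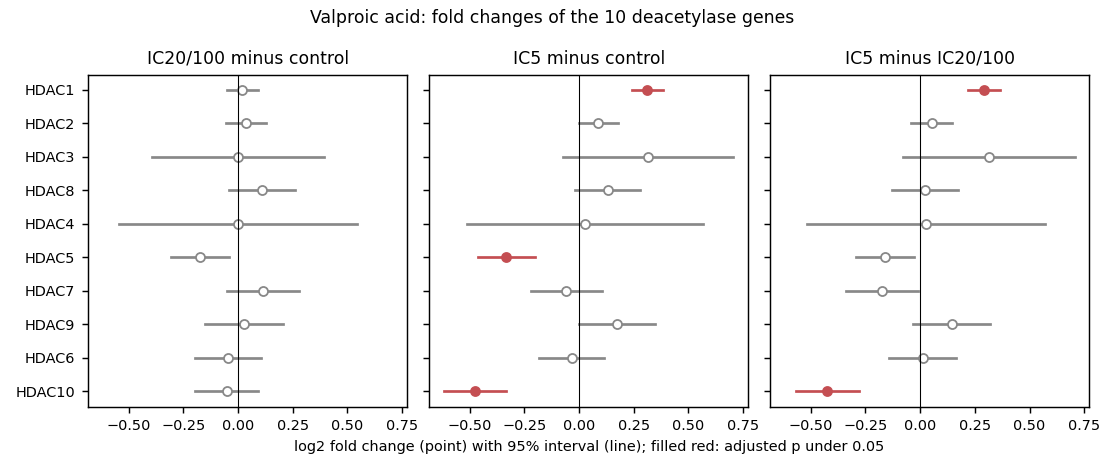
Log2 fold change (points, horizontal axis) with its 95% interval (lines) for the 10 members in the 3 valproic acid comparisons (panels), with filled red points for adjusted p under 0.05 and open grey points for the others. HDAC1 was at 0.31 at IC5 against controls, 0.02 at IC20/100 against controls and 0.29 between the concentrations.

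The concentrations were then compared with each other, IC5 minus IC20/100. Of 10 members 2 passed, beside 17% of all genes: 1 was higher at IC5 (all genes 9.73%) and 1 lower (7.27%). HDAC1 was at 1741 ± 85.5 at IC5 and 1414 ± 95.3 at IC20/100. The groups did not overlap (0.29 ± 0.036, limma adjusted p = 7.87e-10; 95% interval 0.22 to 0.36), and IC5 was higher in 6 of 6 runs. HDAC10 was at 510 ± 49.6 and 681 ± 86.0, lower at IC5 in 6 of 6 runs with 1 IC5 library inside the IC20/100 range (-0.42 ± 0.072, limma adjusted p = 4.15e-06). MAPK12 was lower too, 1078 against 1407 (-0.39 ± 0.045, limma adjusted p = 1.02e-10). HDAC5 (-0.16 ± 0.066, limma adjusted p = 0.0873) and HDAC7 (-0.17 ± 0.082, limma adjusted p = 0.147) did not pass after adjustment. The remaining log2 differences were 0.052 ± 0.046 for HDAC2, 0.31 ± 0.20 for HDAC3, 0.022 ± 0.076 for HDAC8, 0.026 ± 0.27 for HDAC4, 0.14 ± 0.089 for HDAC9 and 0.011 ± 0.076 for HDAC6, and these did not pass.

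Among the complexes that carry class I enzymes, 44 subunits were tested at IC5 against controls. Of these, 7 rose and 1 fell (18.2%, below the 26.9% of all genes), with a median log2 change of 0.032 (all genes 0.0015). HMG20B, a CoREST-associated protein, rose from 526 ± 56.6 to 840 ± 63.3 (0.68 ± 0.089, limma adjusted p = 2.94e-09), without overlap. CHD5 rose from 291 to 448 (0.61 ± 0.15, limma adjusted p = 0.000881), CDK2AP1 from 651 to 999 (0.64 ± 0.16, limma adjusted p = 0.00153), and KDM1A, the demethylase of CoREST, from 6007 to 7026 (0.22 ± 0.048, limma adjusted p = 0.000162). TBL1X, an NCoR/SMRT subunit, was the 1 that fell (-0.22 ± 0.041, limma adjusted p = 1.05e-05). Between the concentrations 5 of these 44 were higher at IC5 (11.4%, all genes 17%), among them CHD5 (0.55 ± 0.15) and HMG20B (0.28 ± 0.089). Of 24 class IIa partners, 4 rose and 2 fell against controls (25%, all genes 26.9%, median log2 change 0.014). CAMK2G, a calcium-dependent kinase gene, rose from 637 to 845 (0.41 ± 0.081, limma adjusted p = 3.42e-05), and CAMK1D fell from 1148 to 968 (-0.24 ± 0.057, limma adjusted p = 0.00057).

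Of 16 acetyltransferases, 1 rose and 5 fell at IC5 against controls (37.5%, all genes 26.9%, median log2 change -0.13). KAT2A fell from 2925 ± 349 to 1685 ± 277 (-0.80 ± 0.12, limma adjusted p = 7.91e-08), without overlap. ATAT1, the tubulin acetyltransferase whose mark HDAC6 removes, fell from 3367 ± 117 to 2654 ± 101 (-0.34 ± 0.037, limma adjusted p = 5.68e-12), also without overlap. HAT1 was the 1 that rose, from 554 to 726 (0.39 ± 0.051, limma adjusted p = 3.34e-09). These 3 genes were also called between the concentrations, with log2 differences of -0.55 ± 0.12, -0.28 ± 0.038 and 0.18 ± 0.052 in that order. Of the 8 other deacetylases 1 was called (12.5%, all genes 26.9%): SIRT6 rose from 348 to 414 (0.26 ± 0.094, limma adjusted p = 0.0308). Of 3 tested BET proteins, readers of acetylated lysine, BRD2 fell from 5379 to 5015 (-0.10 ± 0.035, limma adjusted p = 0.025).

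Among genes known to rise with deacetylase inhibitors, 5 are described here at IC5 against controls (26.9% of all genes called), with no count over the list. GSN, the actin-severing protein gelsolin, rose from 557 to 720 (0.38 ± 0.11, limma adjusted p = 0.00792), and CDKN1C, the cell cycle inhibitor p57, from 2776 to 3302 (0.25 ± 0.059, limma adjusted p = 0.000473). CDKN1A, whose product p21 blocks the cell cycle, went down from 2236 ± 465 to 1114 ± 209, to 0.498 times the controls (limma adjusted p = 1.37e-09). TXNIP, an inhibitor of thioredoxin, fell from 16134 to 10591 (-0.61 ± 0.045, limma adjusted p = 2.33e-19), and CLU, the chaperone clusterin, did not pass (0.12 ± 0.16, limma adjusted p = 0.661). At IC20/100 CDKN1A was also lower than in controls, at 1382 (-0.74 ± 0.13, limma adjusted p = 0.000122).

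Cell type markers moved beside the results at IC5, where 26.9% of all genes were called (14.5% higher and 12.4% lower). Of 6 progenitor markers, 4 rose and 2 fell against controls. NES, an intermediate filament gene, rose from 15559 to 21184 (0.45 ± 0.04, limma adjusted p = 2.57e-15) and the proliferation marker MKI67 from 3210 to 4337 (0.43 ± 0.065, limma adjusted p = 1.09e-07). PAX6 (0.32 ± 0.092) and HES1 (0.20 ± 0.066) also rose. VIM, the most abundant, fell from 72146 to 64493 (-0.16 ± 0.048, limma adjusted p = 0.00682), and SOX2 from 3641 to 3381 (-0.11 ± 0.034, limma adjusted p = 0.0114). The summed progenitor markers ran from 92083 to 98898 at IC5 and from 91517 to 98234 in controls, and the neuronal ones, with 1 of 7 higher, from 88187 to 94628 and from 84130 to 91041. The astrocyte sums, with 1 of 7 higher, ran from 5052 to 5564 and from 4436 to 5724. Of 3 pluripotency markers LIN28A was higher (from 187 to 294), while POU5F1 (from 39.1 to 32.8) and NANOG (from 19.5 to 17.1) did not pass. Of 5 oligodendrocyte lineage markers, PDGFRA was higher (from 35.3 to 74.2; 1.18 ± 0.33, limma adjusted p = 0.0036) and SOX10 lower (-0.78 ± 0.28, limma adjusted p = 0.0281), and the sums ran from 127 to 201 and from 95.4 to 159. The mesenchymal sums, with 1 of 6 higher, ran from 1460 to 2116 and from 1309 to 1721, and the endothelial and immune sums from 8.68 to 26.9 and from 9.95 to 30.1, with the median of AIF1 at 0. The part of these markers in the deacetylase differences was not tested.

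Valproic acid IC5 was also set against each other compound at IC5, comparisons that share the valproic acid libraries. IC5 is set by each compound's own inhibition, so molar doses are not matched. Chlorpyrifos, fluoxetine and methyl mercury were prepared in DMSO, while valproic acid and acrylamide were prepared in medium. In the comparisons with the DMSO-dissolved compounds the vehicle therefore differed along with the compound, and the part of the vehicle was not tested. The members called numbered 6 against acrylamide (37.6% of all genes), 4 against chlorpyrifos (20.4%), 4 against fluoxetine (22.7%) and 4 against methyl mercury (25.7%). HDAC10 was lower with valproic acid in all 4 comparisons, by log2 differences of -0.84 ± 0.072 against acrylamide, -0.47 ± 0.072 against chlorpyrifos, -0.54 ± 0.072 against fluoxetine and -0.64 ± 0.072 against methyl mercury. HDAC1 was higher than with chlorpyrifos (0.24 ± 0.036), fluoxetine (0.29 ± 0.036) and methyl mercury (0.26 ± 0.036), without overlap in these pairs. Against acrylamide the HDAC1 difference was 0.087 ± 0.036, limma adjusted p = 0.047, and the call was lost without the filter (adjusted p = 0.0807), with TMM scaling (0.0511), with edgeR (0.0539) and with the 16 libraries alone (0.124). HDAC5 was higher than with acrylamide (0.38 ± 0.066) and lower than with chlorpyrifos (-0.20 ± 0.065), fluoxetine (-0.18 ± 0.066) and methyl mercury (-0.19 ± 0.066). The fluoxetine call was lost without the filter (adjusted p = 0.0691), without the run term (0.119) and in the 16-library fit (0.118). The methyl mercury call was lost without the filter (0.0533) and in the 16-library fit (0.0952). HDAC9 was higher than with acrylamide (0.45 ± 0.089), chlorpyrifos (0.28 ± 0.088) and methyl mercury (0.28 ± 0.089). HDAC7 (-0.45 ± 0.082) and HDAC6 (-0.21 ± 0.076) were lower than with acrylamide, and HDAC2 was higher than with fluoxetine (0.13 ± 0.046, limma adjusted p = 0.0329). That HDAC2 call was lost without the filter (adjusted p = 0.0645), without the run term (0.0836) and in the 16-library fit (0.0718).

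**Figure D4:**
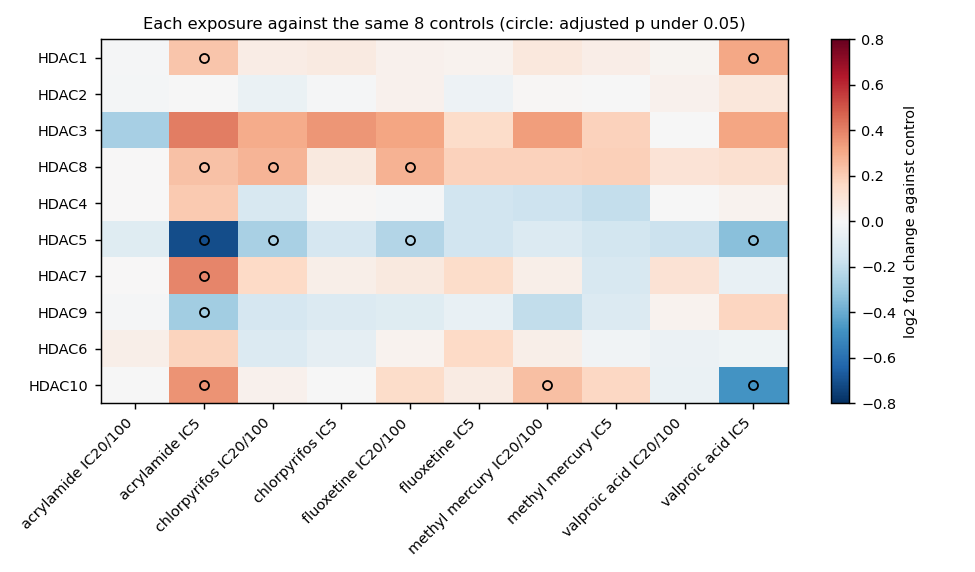
Log2 fold change against controls for the 10 members (rows) in the 10 exposed groups (columns), in red where higher and blue where lower than controls, with circles for adjusted p under 0.05. HDAC10 was at 0.36 with acrylamide IC5 and at -0.48 with valproic acid IC5.

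The 10 exposed groups share the same 8 controls, so a control mean that is high or low moves all comparisons of a gene. HDAC5 had its highest day 10 mean in controls, and HDAC8 its lowest. Acrylamide IC5 had 6 of 10 members called, beside 42% of all genes: 4 were higher (all genes 20.5%) and 2 lower (21.5%). HDAC5 ran from 1032 to 1280 (median 1181), below every control (-0.71 ± 0.066, limma adjusted p = 3.53e-15). HDAC7 was at 1962 ± 237 (0.39 ± 0.082, limma adjusted p = 5.03e-05) and HDAC10 at 907 ± 109 (0.36 ± 0.072, limma adjusted p = 2.48e-05), both higher than controls with overlapping ranges. HDAC1 was at 1628 ± 64.1 (0.22 ± 0.036, limma adjusted p = 2.21e-07), HDAC8 at 658 ± 57.5 (0.23 ± 0.076, limma adjusted p = 0.00872) and HDAC9 at 661 ± 56.0 (-0.28 ± 0.089, limma adjusted p = 0.00786). MAPK12, which shares bases with HDAC10, was higher by 0.12 ± 0.045, limma adjusted p = 0.0296. HDAC8 shares 1193 exonic bases on its own strand with AL133500.1, a protein-coding gene, so reads could be split there too. AL133500.1 was at 31.5 against 21.5 in controls and did not pass (0.58 ± 0.44, limma adjusted p = 0.304). Between the acrylamide concentrations the same 6 members and HDAC3 were called (7 of 10, beside 41.1% of all genes), with HDAC3 at 1485 ± 359 at IC5 and 961 ± 274 at IC20/100 (0.68 ± 0.20, limma adjusted p = 0.00358).

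With chlorpyrifos IC20/100, 2 members were called (all genes 14.1%): HDAC8 was higher (0.27 ± 0.076, limma adjusted p = 0.00797) and HDAC5 lower (-0.26 ± 0.066, limma adjusted p = 0.00286). The HDAC8 call was lost in a fit of the 16 libraries alone (adjusted p = 0.0837). With fluoxetine IC20/100 the same 2 genes were called (all genes 14.4%), HDAC8 at 0.28 ± 0.075 and HDAC5 at -0.23 ± 0.065. With methyl mercury IC20/100, 1 member was called (all genes 15.8%): HDAC10 was at 836 ± 116 (0.24 ± 0.072, limma adjusted p = 0.0136). Without the replicate 8 that stood apart its change was 0.19 (adjusted p = 0.0611), and the call was lost; the count of all genes called went from 3185 to 2696. By limma, edgeR and DESeq2, 0 of 10 members passed with chlorpyrifos IC5 (19.7% of all genes; 2 members at an unadjusted p under 0.05), fluoxetine IC5 (11.4%; 3), methyl mercury IC5 (10.9%; 3) and acrylamide IC20/100 (0.0596%; 0). By the same tools 0 members passed between the concentrations of chlorpyrifos (0.0497% of all genes; 1 at an unadjusted p under 0.05), fluoxetine (3.76%; 0) and methyl mercury (5.17%; 1). Without that replicate 8, the count of all genes called between the methyl mercury concentrations went from 1042 to 913.

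Across the 12 groups most neighbours in the order of levels overlapped. HDAC1 ran from 1973 in NPC through 1741 at valproic acid IC5 and 1628 at acrylamide IC5 to 1396 at acrylamide IC20/100, and all its neighbours overlapped. The neighbours without overlap were NPC above valproic acid IC5 for HDAC2, valproic acid IC5 above acrylamide IC5 for HDAC5, and valproic acid IC5 above NPC for HDAC10. Such pairs were not counted over all genes, so they describe these members only. The highest of the 11 day 10 means was 1.78 times the lowest for HDAC10, 1.64 times for HDAC5, 1.55 times for HDAC3 and 1.10 times for HDAC2, the member that varied least.

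**Figure D5:**
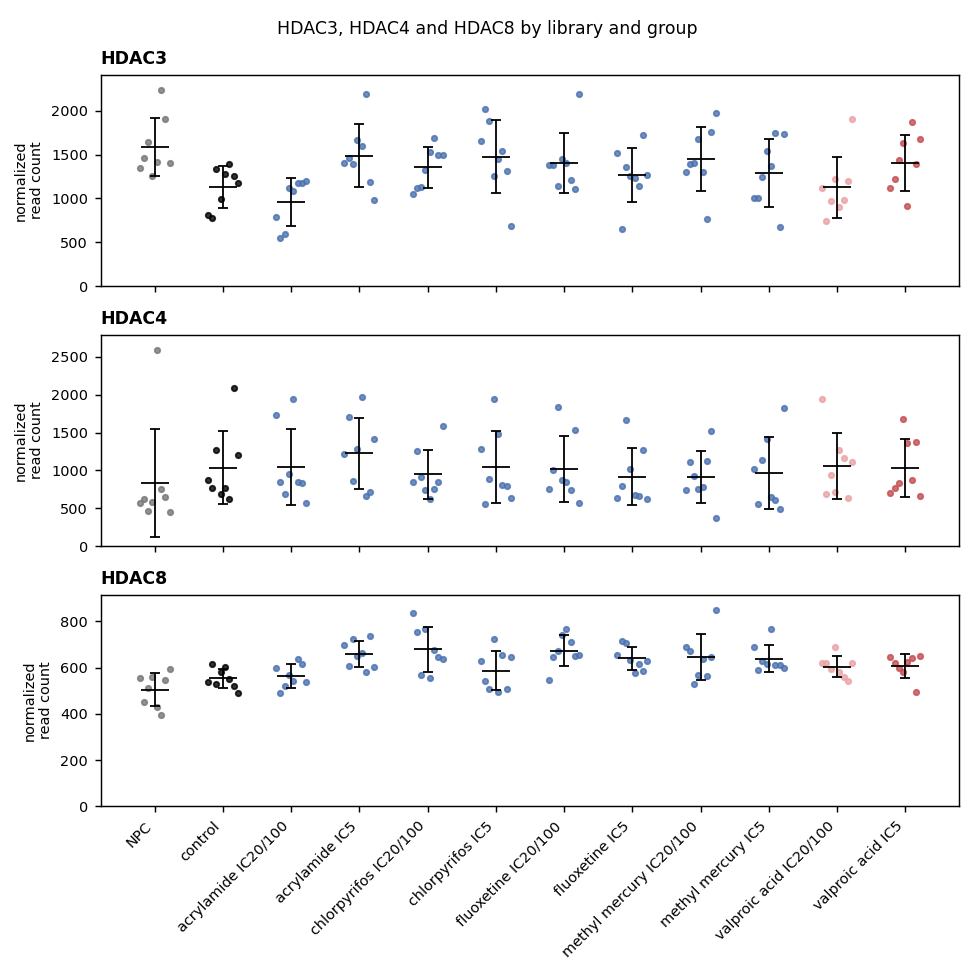
Normalized read count (vertical axis) of HDAC3, HDAC4 and HDAC8 (top to bottom) in the 12 groups (horizontal axis), with a point for each library and bars for the mean and 1 SD of 8 libraries. Within the controls HDAC4 ran from 622 to 2085 (median 822) and HDAC3 from 776 to 1397 (median 1217), while HDAC8 was at 553 ± 42.4.

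Replicate spread differed between members. HDAC1 had a residual SD of 0.068 on the log2 scale over the day 10 libraries, at the 4.06th percentile of 2908 genes of similar mean. HDAC4 had 0.55, at the 95.5th percentile of 3454 such genes, and HDAC3 0.40, at the 92.8th of 3125. The coefficient of variation of HDAC4 within a day 10 group was 33.9 to 49.6%, although no library held fewer than 390 of its reads.

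The protein-coding genes whose 11 day 10 means were most like those of the 3 members with the widest range were sought among 11619 genes, as a description with no test. For HDAC10 they were ATOSB (Pearson r = 0.96), FAM200B (0.95) and COIL (0.94). For HDAC5 they were ACTR1B (0.97), SUPT3H (0.97) and NR2C1 (0.96), and for HDAC3 GFUS (0.94), GAL3ST4 (0.93) and ALDH4A1 (0.93). The 11 means share size factors and sequencing runs. A search over 11619 genes with only 11 means can by itself give a high r, and shared regulation was not tested.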

How the data were processed

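Polyadenylated RNA was sequenced as stranded libraries, 16 per run in 6 runs. The submitters' processing notes name bcl2fastq, FastQC 0.11.8, MultiQC 1.0, Salmon 1.3.0, DESeq2 1.30.0 and the build GRCh38, and no annotation release. The deposited signal is a gene count divided by a size factor of its library; 100% of its values came out as whole reads within 0.001 read (in 6 libraries 1 read was worth within 1.2% of 1). Symbols were matched for 58087 of 58434 genes.

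Because the values are normalized, limma 3.58.1 (R 4.3.3, trended prior) was run on log2(value + 2), which understates changes of low genes, with group and run as terms. Genes needed a value of 10 or more in 8 libraries. NPC and controls were fitted alone (16 libraries, 18063 genes) and the 88 day 10 libraries together (20136 genes); a call is a Benjamini-Hochberg adjusted p under 0.05. edgeR 4.0.16 and DESeq2 1.42.0 were run on the recovered reads as alternatives. The code was tested on simulated data. Positions and lengths came from GENCODE 29 (for HDAC8, the longest coding transcript).

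The members and gene lists were chosen with earlier results of these data known. All members were named, and of each list up to 4 called genes with the largest changes, or any gene of the other deacetylases and the inhibitor-induced list, of which 1 gene is not reported here.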

Additional observations from a re-analysis of the deposited data

Results flagged for a closer look

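Of 120 sets of 8 values (10 members in 12 groups), 16 held 1 library set apart from the other 7 by a gap that was wide for the range; chance gives about 1 in 20. In replicate 5 of acrylamide IC20/100, HDAC1 was at 1464 (the others 1360 to 1408). In replicate 4 of fluoxetine IC20/100, HDAC1 was at 1275 (the others 1399 to 1492). In replicate 7 of valproic acid IC5, HDAC1 was at 1941 (the others 1674 to 1762), HDAC8 was at 495 (the others 580 to 651). In replicate 8 of methyl mercury IC20/100, HDAC2 was at 7711 (the others 5386 to 5979), HDAC6 was at 4232 (the others 2754 to 3444), HDAC9 was at 366 (the others 715 to 799). In replicate 8 of fluoxetine IC20/100, HDAC3 was at 2191 (the others 1108 to 1450). In replicate 8 of valproic acid IC20/100, HDAC3 was at 1900 (the others 747 to 1216), HDAC6 was at 4140 (the others 2571 to 3150). In replicate 5 of NPC, HDAC4 was at 2585 (the others 446 to 761). In replicate 7 of the controls, HDAC4 was at 2085 (the others 622 to 1272). In replicate 3 of chlorpyrifos IC5, HDAC5 was at 2163 (the others 1552 to 1800). In replicate 7 of methyl mercury IC5, HDAC5 was at 2191 (the others 1485 to 1760). In replicate 1 of chlorpyrifos IC5, HDAC7 was at 2190 (the others 1241 to 1638). In replicate 6 of fluoxetine IC5, HDAC9 was at 1011 (the others 641 to 802).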

How the results depend on the processing

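Alternatives covered the pseudocount, the filter, TMM scaling, edgeR and DESeq2, the run term, a replicate block, fits of 16 libraries and left-out libraries. The 47 called member differences kept their sign in all 721 values, of which 18 were not called. At valproic acid IC5 against controls the 3 calls held in each, with left-out libraries giving 0.29 to 0.33 for HDAC1, -0.51 to -0.45 for HDAC10 and -0.36 to -0.29 for HDAC5. Replicate numbers were not taken to pair the libraries. With run removed, the median correlation of same-numbered deviations was 0.13 for NPC and controls (other numbers 0.082), 0.10 for valproic acid IC20/100 and controls (0.077) and 0.15 between the valproic acid concentrations (0.076). For valproic acid IC5 and controls it was -0.65 (0.12). There same-numbered libraries shared a run, so removing the run pushes the value below 0 and it cannot show pairing. In the other comparisons same-numbered libraries never shared a run, while some pairs with other numbers did, which can lower the median of the latter. The slightly higher values of same-numbered libraries there may come from this. The check therefore does not settle whether the numbers pair libraries. The replicate block took the members called with acrylamide IC5 from 6 to 7 and for valproic acid against fluoxetine from 4 to 5, and no other count of members moved.

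The count of members for valproic acid against fluoxetine went from 4 to 2 without the filter or the run term, and to 6 with the filter at 50, with DESeq2 and without methyl mercury IC20/100 replicate 8. Without that replicate the count also went from 6 to 7 for acrylamide IC5 and from 4 to 5 for valproic acid against chlorpyrifos. The 16-library fits gave 1 for methyl mercury IC5 (from 0), 1 for chlorpyrifos IC20/100 (from 2) and 0 for methyl mercury IC20/100 (from 1), also 0 without its replicate 8. In those fits the counts of all genes went from 511 to 22 for valproic acid IC20/100 (329 without the run term, 925 without methyl mercury IC20/100 replicate 8), from 3185 to 351 for methyl mercury IC20/100, and between concentrations from 1042 to 27 for methyl mercury and from 758 to 450 for fluoxetine (1175 without that replicate). For acrylamide IC20/100, 12 became 0 to 27, and between chlorpyrifos concentrations 10 became 2 to 64.

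Uncalled members near 0 changed sign, and the cause was not tested. Over the 153 uncalled member differences, 91 of 2339 values had the other sign and 20 were called. At valproic acid IC5 against controls HDAC4 was -0.0355 with edgeR, -0.0359 with DESeq2 and -0.0849 to 0.17 with a library left out, and HDAC6 -0.0616 to 0.0204. Between the concentrations HDAC4 was -0.0244 without the run term, -0.0328 with edgeR, -0.032 with DESeq2 and -0.0782 to 0.16 with a library left out. HDAC6 was -0.00403 with edgeR, -0.00114 with DESeq2 and -0.0147 to 0.0743, and HDAC8 -0.000546 to 0.0534. HDAC1 at IC20/100 against controls was -0.0104 to 0.0443.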
